A study of Homo sapiens and Mus musculus with 19 samples.

Results

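Genes of the canonical Wnt pathway, 9 in all, were followed in the chromatin-associated RNA (caRNA) of mouse embryonic stem cells (mESC). They were the 4 TCF-LEF transcription factor genes (Lef1, Tcf7, Tcf7l1 and Tcf7l2), the β-catenin gene Ctnnb1, and the Wnt target genes Axin2, Nkd1, Sp5 and Cdx1. All 9 were found among the 54446 genes of the mouse count tables, and all 9 passed the filter on low counts that left 27603 genes. The set was selected on the log2 change between siNsun2 and siControl, in which Lef1 stood among the largest increases, so the difference of each of the 9 genes between siNsun2 and siControl is given as a description, without a test.

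The study asked how 5-methylcytosine on chromatin-associated RNA bears on chromatin and transcription, and NSUN2 is an enzyme that writes this mark. The mESC were transfected either with a control siRNA (siControl, 3 libraries) or with siRNA against Nsun2 (siNsun2, 3 libraries, genotype given as Nsun2 knockdown), and 1 further library of wild-type genotype, replicate 3, is called Pspc1 WT here (its title spells the gene Pscp1). Every culture was kept in serum with LIF, 3 µM CHIR99021 and 1 µM PD0325901, and feeder cells had been cleared by passage on gelatin. RNA was taken from the chromatin pellet, in which unspliced and nascent transcripts are abundant, and read counts per gene were analysed. The study calls its genome-wide data biological replicates, but neither it nor the labels say which libraries came from separate cultures, so the spread given below may in part be technical.

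In the canonical pathway a Wnt ligand binds Frizzled and LRP receptors, the destruction complex of AXIN, APC and GSK3 is switched off, and β-catenin accumulates and enters the nucleus. There it binds the TCF-LEF proteins, which sit on DNA through an HMG box and otherwise recruit Groucho (TLE) corepressors. In mouse ES cells TCF7L1 is best known as a repressor that limits the pluripotency programme, whereas TCF7 and LEF1 are mostly described as partners of β-catenin in activation. CHIR99021 inhibits GSK3 and thereby holds the pathway on in the absence of ligand; because both siRNA groups received it, neither group represents cells without Wnt signalling.

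The 4 TCF-LEF genes are paralogues, and how alike they are decides whether reads can be told apart. The best conserved 75-base coding window of the family lies in the HMG box and is printed here for each gene, 5′ to 3′ on the gene's strand, with capitals for the 51 bases that are the same in all 4. The windows were read from GENCODE vM21 transcripts on GRCm38: exon 8 of 12 in Lef1 (chr3:131194704-131194778, plus strand), exon 7 of 10 in Tcf7 (chr11:52256958-52257032, minus strand), exon 10 of 13 in Tcf7l1 (chr6:72631224-72631298, minus strand) and exon 9 of 14 in Tcf7l2 (chr19:55918961-55919035, plus strand).
Lef1: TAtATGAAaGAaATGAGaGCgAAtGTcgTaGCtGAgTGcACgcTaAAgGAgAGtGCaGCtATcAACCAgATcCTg
Tcf7: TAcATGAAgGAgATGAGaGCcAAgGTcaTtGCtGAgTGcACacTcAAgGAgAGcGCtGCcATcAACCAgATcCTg
Tcf7l1: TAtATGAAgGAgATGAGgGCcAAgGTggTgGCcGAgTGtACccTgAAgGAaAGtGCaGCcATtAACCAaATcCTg
Tcf7l2: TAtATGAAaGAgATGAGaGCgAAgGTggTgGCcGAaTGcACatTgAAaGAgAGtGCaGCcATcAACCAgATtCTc
Against the Lef1 window, Tcf7 matched at 63 bases (84.0%), Tcf7l2 at 62 (82.7%) and Tcf7l1 at 60 (80.0%). Over all annotated transcripts the longest run shared by any pair of the family was 14 to 23 bases, so that longer reads can tell the paralogues apart.

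The 9 genes lie on 8 chromosomes. On GRCm38 the TCF-LEF genes are at chr3:131110471-131224356 (Lef1, ENSMUSG00000027985.14), chr11:52252371-52283014 (Tcf7, ENSMUSG00000000782.15), chr6:72626378-72789254 (Tcf7l1, ENSMUSG00000055799.13) and chr19:55741820-55933654 (Tcf7l2, ENSMUSG00000024985.18). Ctnnb1 (ENSMUSG00000006932.17) is at chr9:120929216-120960507 and Axin2 (ENSMUSG00000000142.15) at chr11:108920349-108950783. Nkd1 (ENSMUSG00000031661.12) is at chr8:88521354-88594884, Sp5 (ENSMUSG00000075304.2) at chr2:70474923-70477729 and Cdx1 (ENSMUSG00000024619.8) at chr18:61018862-61036199. Reads in the overlap of annotated genes on the same strand appear to have been set aside as ambiguous, and 55.95% of the Tcf7 span is shared with the lincRNA Gm26551, so the level of Tcf7 is an uncertain underestimate. The other same-strand overlaps were small: Gm42449 covers 1.983% of the Lef1 span, Gm37969, Gm38114 and Gm37736 cover 2.093%, 0.7564% and 1.72% of Tcf7l1, Ppnr covers 2.203% of Tcf7l2, Gm45496 covers 3.967% of Nkd1 and Mir7090 covers 0.1981% of Ctnnb1, and all of these features had 0 counts in the mESC libraries. Axin2, Sp5 and Cdx1 have no such neighbour.

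Gene counts per library ran from 62989044 to 66832780 in siControl and from 58078323 to 59411087 in siNsun2, with 91990658 in the Pspc1 WT library. Values are CPM, the count of a gene relative to all gene counts of its library, scaled between libraries by TMM, unless another scale is named, and a log2 change is siNsun2 relative to siControl. The targeted gene Nsun2 was at 133, 126 and 130 CPM in siControl and at 98.8, 106 and 103 CPM in siNsun2, a log2 change of -0.34 in this fraction. Genes above 100 CPM had a median of -0.22 and a 5th percentile of -0.45, so Nsun2 did not stand out from genes of its level. Reads assigned to no counted feature, whose type is not stated, made up 19.9% ± 0.348 (SD, n = 3) of the read records in siControl and 29.4% ± 0.464 in siNsun2. Olfactory receptor genes, which ES cells are not known to use, served as a gauge of background: their level was 0.0296 ± 0.00163 CPM per kb of gene span in siControl and 0.0443 ± 0.00206 in siNsun2, 1.50 times higher. The median log2 change of all genes differed with level, at 0.60 for genes under 1 CPM, 0.33 from 1 to 10 CPM, -0.17 from 10 to 100 CPM and -0.22 above 100 CPM.

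Lef1 had the largest log2 change of the 9 genes, although Tcf7l1 and Tcf7l2, at far higher levels, differed by more CPM. Its caRNA was at 20.7, 18.3 and 17.9 CPM in the siControl libraries and at 51.8, 52.9 and 52.9 CPM in the siNsun2 libraries. The groups were far apart, and the spread within siNsun2 was small. The means were 18.96 ± 1.48 and 52.5 ± 0.609 CPM, a ratio of 2.77 and a log2 change of 1.47 (SE 0.05). Among the 9297 genes at a mean of 10 CPM or more, 3 had a higher log2 change, while among all 27603 genes, which include many at trace levels, Lef1 ranked number 889.

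Tcf7l1, the most abundant TCF-LEF gene here, was at 619, 591 and 579 CPM in siControl and at 526, 524 and 530 CPM in siNsun2. The groups did not overlap, but the step between them was small. The log2 change was -0.18 (SE 0.02) with TMM and 0.00 when libraries were scaled by total gene counts, so that the direction rested on the scaling.

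Tcf7l2 was at 257, 257 and 256 CPM in siControl and at 208, 210 and 214 CPM in siNsun2. Every siNsun2 library was lower, and the log2 change was -0.29 (SE 0.02) with TMM and -0.11 with total gene counts. Tcf7 was at 14.6, 11.5 and 11.4 CPM in siControl and at 11.01, 11.5 and 13.6 CPM in siNsun2, where the groups overlapped. Its log2 change was -0.05 (SE 0.09) with TMM and 0.13 with total gene counts. Lef1 alone among the 4 factors was thus higher with siNsun2 under all 4 scalings, with log2 changes from 1.41 to 1.67.

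Ctnnb1 encodes β-catenin itself, whose activity is set mainly through the stability of the protein. It was at 209, 210 and 214 CPM in siControl and at 196, 188 and 191 CPM in siNsun2. The groups did not overlap, and the log2 change was -0.14 (SE 0.03) with TMM but 0.04 with total gene counts.

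Among the target genes, Axin2 and Nkd1 encode negative feedback proteins of the pathway. Axin2, the most widely used readout of β-catenin signalling, was at 38.6, 36.7 and 38.1 CPM in siControl and at 31.8, 28.4 and 31.8 CPM in siNsun2. All 3 siNsun2 libraries were below all 3 siControl libraries, and the log2 change was -0.30 (SE 0.05) with TMM and -0.12 with total gene counts. Nkd1, a Dishevelled-binding inhibitor, was at 9.04, 7.75 and 6.77 CPM in siControl and at 9.42, 9.47 and 9.16 CPM in siNsun2. Its groups only just parted, with a log2 change of 0.25 (SE 0.11), smaller than the median of 0.33 for all genes of its level.

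Sp5 encodes a zinc-finger repressor that is a direct β-catenin target in ES cells. It was at 0.638, 0.152 and 0.524 CPM in siControl and at 0.351, 0.626 and 0.350 CPM in siNsun2, from only 9 to 40 counts per library. The groups overlapped entirely, the log2 change was 0.01 (SE 0.47) and ran from -0.05 to 0.21 over the scalings, and a difference as large as that of Axin2 was not detectable at this depth.

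Cdx1, a caudal-type homeobox gene that acts in the posterior embryo and is a direct Wnt target, stood at the other end from Lef1. It was at 28.2, 26.4 and 27.8 CPM in siControl and at 12.2, 12.8 and 13.1 CPM in siNsun2. The siNsun2 libraries lay far below, with means of 27.4 ± 0.949 and 12.7 ± 0.437 CPM and a log2 change of -1.11 (SE 0.07). Of the genes at 10 CPM or more, 7 had a lower log2 change. In bulk RNA, fewer cells that express a gene and less RNA per cell cannot be told apart, for Cdx1 as for the other genes.

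**Figure D1:**
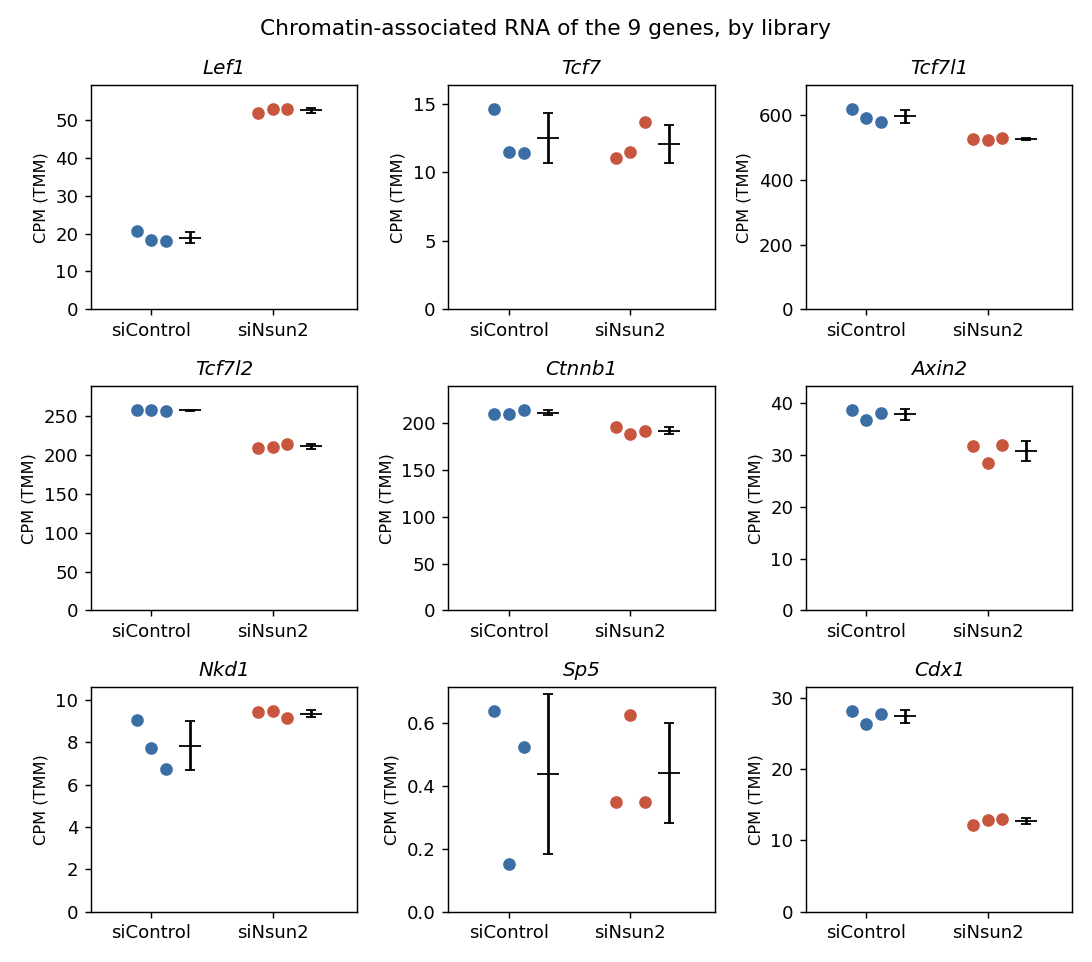
CPM (TMM scaled, linear axes from 0) of the 9 genes in each siControl (blue) and siNsun2 (red) library, with black bars for mean ± SD (n = 3). Lef1 lies at 17.9 to 20.7 CPM in siControl and 51.8 to 52.9 CPM in siNsun2, Cdx1 at 26.4 to 28.2 and 12.2 to 13.1 CPM, and the points of Tcf7 and Sp5 overlap.

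Counted together, 7 of the 9 genes had groups that did not overlap, 2 of them higher (Lef1 and Nkd1) and 5 lower, against 56.7% of all genes (30.3% higher and 26.3% lower). The 5 lower genes stood at least 10 times above background, where 57.4% of all genes were called lower and 4.62% higher. Lef1 and Nkd1 lay under it, where 39.6% of all genes were called higher and 2.92% lower. Because the set was selected on this contrast, the count is a description. The median log2 change of the 9 genes was -0.14, or -0.16 without Lef1, beside 0.14 over all genes. With total gene counts the medians of the 9 and of all genes were 0.04 and 0.32. Many of all genes are at low levels, whereas the 9 genes apart from Nkd1 and Sp5 averaged 10 CPM or more. With TMM the median of all genes was -0.17 from 10 to 100 CPM and -0.22 above 100 CPM. With TMM only Lef1 and Cdx1 passed a 2-fold difference, and the other 7 lay between -0.30 and 0.25. That size was reached by 11.2% of all genes in the higher direction and by 0.438% in the lower direction. Cdx1 did not pass it with total gene counts (log2 change -0.93) or with TMM factors from genes 10 times above background (-0.92). Nkd1 was at 0.43 with total gene counts.

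**Figure D2:**
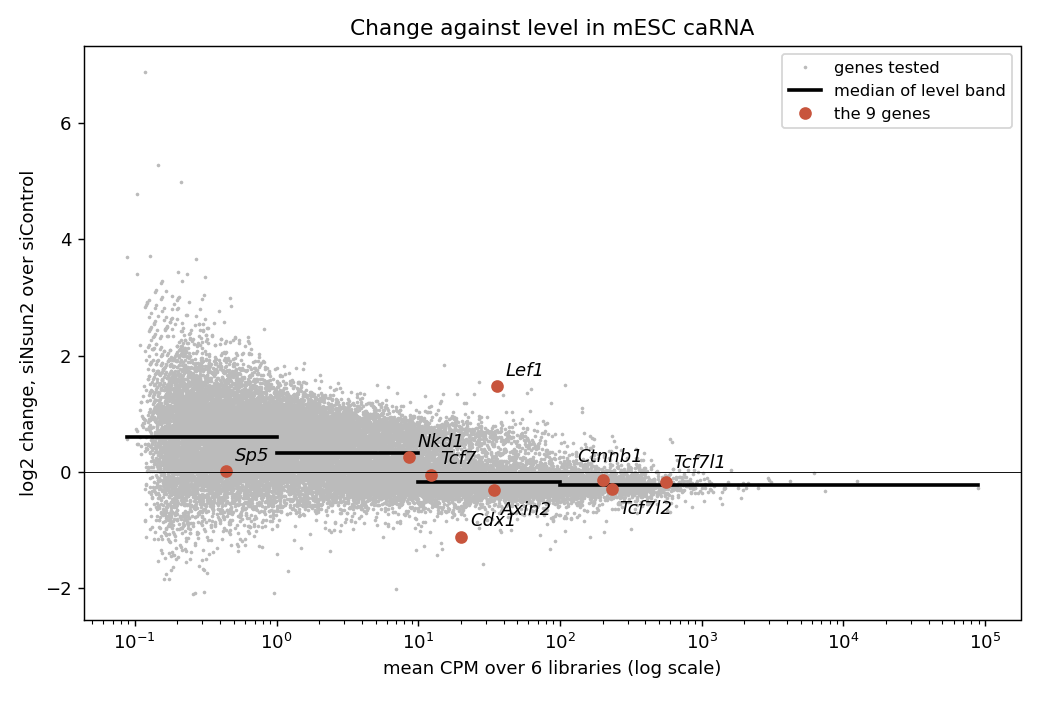
Log2 change (siNsun2 over siControl, TMM) against mean CPM over the 6 libraries (log axis) for all 27603 genes tested (grey), with black lines for the median of each level band and red points for the 9 genes. Lef1 at 1.47 and Cdx1 at -1.11 stand apart from the median of their CPM band, -0.17, while Tcf7l1, Tcf7l2, Ctnnb1 and Axin2 lie nearer to the median of theirs. The bands take no account of gene length, and per kb of span Lef1 averaged under 10 times background, where 39.6% of all genes rose.

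The order of the 9 genes by level was compared per length, as CPM per kb of gene span. In siControl it ran from Ctnnb1 (6.74 ± 0.0788) through Tcf7l1 (3.66 ± 0.126), Cdx1 (1.58 ± 0.0547), Tcf7l2 (1.34 ± 0.00184) and Axin2 (1.24 ± 0.0335) to Tcf7 (0.408 ± 0.0596), and each of these was separated from the next over the 3 libraries. Lef1 (0.166 ± 0.0130), Sp5 (0.156 ± 0.0906) and Nkd1 (0.107 ± 0.0155) closed the list, and there Sp5 could not be separated from either neighbour. In siNsun2 Cdx1 (0.732 ± 0.0252) had moved from place 3 to place 5, below Tcf7l2 (1.10 ± 0.0154) and Axin2 (1.01 ± 0.0640). Lef1 (0.461 ± 0.00535) had moved above Tcf7 (0.393 ± 0.0455), whose level is uncertain because of its overlap with Gm26551. The feature type counted is not stated, and the order depended on the length used. Features lying inside these genes on the same strand had 0 counts, which counting over whole spans would produce. In that case values per kb of exon are not levels of exon RNA. Per kb of exon in siControl, Tcf7l1 (152) came first, before Ctnnb1 (40.6), Tcf7l2 (29.3) and Cdx1 (15.7). Sp5 (0.209) was then last, below Nkd1 (1.72).

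Ratios within a library do not depend on how libraries are scaled to each other. Of the summed level of the 4 TCF-LEF genes per kb of span, Lef1 made up 3.13%, 2.92% and 2.90% in siControl and 8.87%, 9.02% and 8.80% in siNsun2. Its share thus differed by 5.91 percentage points, from 2.98% ± 0.126 to 8.89% ± 0.114. Per kb of exon in place of span, with the limit given above, the share went from 1.15% to 3.54%. After subtraction of background it went from 2.50% to 8.32%. Tcf7l1 remained the bulk of the family, at 65.7% ± 0.224 in siControl and 62.4% ± 0.672 in siNsun2. Tcf7l2 made up 24.0% ± 0.821 and 21.2% ± 0.0346, and Tcf7 7.30% ± 0.802 and 7.57% ± 0.757.

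**Figure D3:**
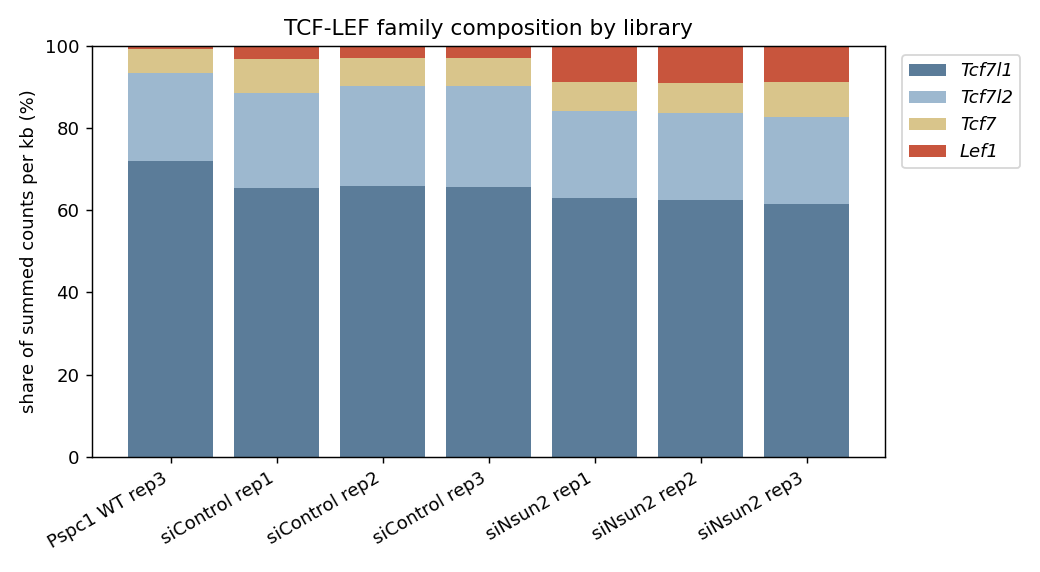
Share (%) of each TCF-LEF gene in the summed counts per kb of gene span of the 4 genes, 1 stacked bar per mESC library. The red Lef1 segment takes 2.90% to 3.13% in siControl, 8.80% to 9.02% in siNsun2 and 0.724% in the Pspc1 WT library, and Tcf7l1 is the largest segment in every bar.

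Set against single partners, Lef1 was at 4.54 ± 0.200 per 100 of Tcf7l1 in siControl and at 14.3 ± 0.173 in siNsun2. Per 100 of Tcf7l2 it was at 12.4 ± 0.964 and 42.0 ± 0.470. Tcf7l2 and Tcf7l1 kept closer to each other, at 36.6 ± 1.21 and 33.9 ± 0.337 Tcf7l2 per 100 of Tcf7l1. Among the targets, Cdx1 was at 127 ± 1.01 per 100 of Axin2 in siControl and at 72.8 ± 5.89 in siNsun2. Axin2 was at 18.4 ± 0.519 and 16.4 ± 0.830 per 100 of Ctnnb1. The 3 libraries of each group did not overlap in any of these ratios, but the Lef1 and Cdx1 ratios differed most. Because the set was selected on this contrast, this is a description. Ratios of other gene pairs were not counted, and of single genes 56.7% did not overlap.

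Because the background was higher in siNsun2, each level was also read as a multiple of the olfactory receptor level. Lef1 went from 5.65 to 10.4 times background, and its increase of 0.295 CPM per kb was 20.1 times the increase of 0.0147 CPM per kb in the background. Averaged over the 6 libraries, Lef1 lay under 10 times background. Of all 16748 genes under that level, 39.6% were called higher and 2.92% lower. With the background subtracted, the log2 change of Lef1 was 1.61 and that of Cdx1 was -1.18. Nkd1 was nearest to background, at 3.63 and 2.87 times, and its log2 change came down from 0.25 to 0.10. Sp5 was at 5.35 and 3.52 times background and changed sign, to -0.16. Ctnnb1 (228 and 139 times), Tcf7l1 (124 and 73.1 times), Tcf7l2 (45.3 and 24.8 times) and Axin2 (42.0 and 22.8 times) stood well above it in both groups. The part of the background in the differences of the low genes was not tested further.

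**Figure D4:**
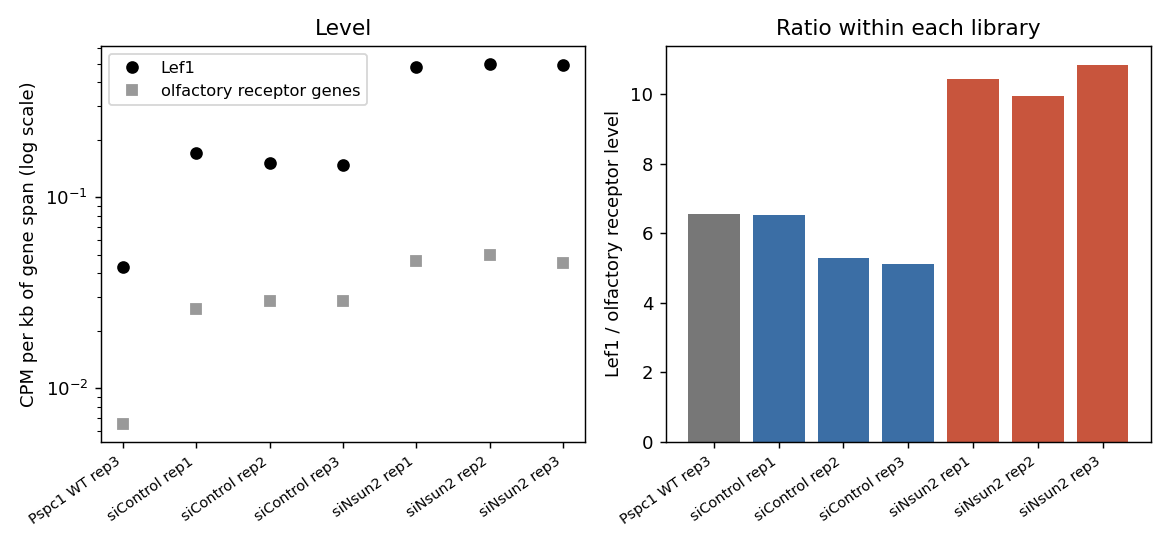
Left, level of Lef1 (black) and of olfactory receptor genes (grey) in CPM of total gene counts per kb of gene span (log axis) in each mESC library; right, their ratio (bars from 0). The ratio is 5.13 to 6.53 in siControl, 9.96 to 10.9 in siNsun2 and 6.56 in the Pspc1 WT library.

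The surroundings of the genes at either end were examined within 500 kb on each side, a window chosen after their values were seen. Around Lef1, 8 tested genes at 1 CPM or more had log2 changes from -0.31 to 1.07 with a median of 0.00. The nearest, Hadh, a mitochondrial fatty-acid oxidation enzyme gene 9.06 kb away, went from 40.1 to 34.6 CPM (edgeR log2 change -0.21, adjusted p = 0.000224). The highest was the lincRNA 2010110G14Rik, 173 kb away, from 3.15 to 6.60 CPM (edgeR log2 change 1.07, adjusted p = 2.57e-10). Around Cdx1, 16 genes had log2 changes from -1.01 to 1.29 with a median of -0.19. The lowest was its direct neighbour Pdgfrb, which encodes a PDGF receptor, begins 8.95 kb from the 5′ end of Cdx1 and is transcribed the other way. Pdgfrb fell from 13.8 ± 0.270 to 6.84 ± 0.485 CPM (edgeR log2 change -1.01, SE 0.10, adjusted p = 1.25e-15), close in size to Cdx1. Slc6a7, an amino-acid transporter gene 4.64 kb from the other end of Cdx1, fell less (30.5 to 21.8 CPM, edgeR log2 change -0.48, adjusted p = 1.27e-10), while Csf1r, 64.4 kb away beyond Pdgfrb, rose from 1.21 to 2.96 CPM (edgeR log2 change 1.29, adjusted p = 2.16e-07).

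Genes whose profile over the 6 siRNA libraries was most like that of Lef1 were ranked by Pearson's r of log2 CPM among 9296 genes at 10 CPM or more. The first 5 were Dnah8 (r = 0.9995), Nlrp5-ps (0.999), Iqck (0.999), Cgnl1 (0.999) and Sulf1 (0.998). Their log2 changes were 0.44, 0.82, 0.59, 0.76 and 1.04, so that they resembled Lef1 in shape more than in size. With 2 groups of 3 libraries such an r mostly restates that both genes were higher in siNsun2, and 92 genes exceeded 0.99.

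The other genes of the pathway, from lists that leave the 9 genes out, were tested in the same fit. Of 106 listed genes 105 were tested; 27 rose, 32 fell and 46 were not called, with a median log2 change of -0.01. Over all genes tested 50.2% were called, 25.8% higher and 24.3% lower. With total gene counts the listed genes split into 44 higher and 16 lower. Of the 49 listed genes at least 10 times above background, 5 rose and 31 fell, beside 4.62% and 57.4% of all 10855 such genes. Of all 16748 genes under that level, 39.6% rose and 2.92% fell, and the counts of the single lists below are to be read beside these shares.

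Ligand and ligand-secretion genes were mostly low. Of 20 tested, 11 rose, 1 fell and 8 were not called, with a median of 0.54, and only 2 stood 10 times above background. Scaling by total gene counts gave 15 higher and 0 lower. Wnt9b was at 0.668 ± 0.196 CPM in siControl and 2.44 ± 0.524 CPM in siNsun2 (edgeR log2 change 1.87, SE 0.26, adjusted p = 1.29e-09). Wnt8a was at 1.03 ± 0.186 and 2.58 ± 0.542 CPM (edgeR log2 change 1.33, adjusted p = 7.17e-07). Both were under 3 CPM in either group.

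Of 15 receptor genes, 3 rose, 5 fell and 7 were not called. Ror1, a receptor tyrosine kinase for non-canonical Wnt ligands, rose from 22.5 ± 0.724 to 56.2 ± 2.44 CPM (edgeR log2 change 1.32, SE 0.05, adjusted p = 3.09e-39). Its log2 change and CPM were close to those of Lef1, though the levels were not compared per length. Ror1 lay under 10 times background, where 39.6% of all genes rose, and an overlapping gene on its strand makes its level uncertain. Fzd7, a Frizzled receptor gene, rose from 11.3 ± 0.689 to 15.3 ± 0.440 CPM (edgeR log2 change 0.44, adjusted p = 4.46e-06).

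The R-spondin module held ligands and receptors that raise the number of Frizzled receptors at the surface, and also Znrf3 and Rnf43, which do not. It had 6 of 9 genes higher, 1 lower and 2 not called, and 9 higher with total gene counts. The lower gene was Znrf3 (548 ± 6.24 to 511 ± 10.7 CPM, edgeR log2 change -0.10, adjusted p = 4.62e-05), and Rnf43 was not called. Of the 9 genes, 7 lay under 10 times background. Rspo4 rose from 1.50 ± 0.189 to 2.61 ± 0.369 CPM (edgeR log2 change 0.80, adjusted p = 0.000889) and Rspo3, which has an overlapping gene on its strand, from 2.70 ± 0.479 to 4.43 ± 0.165 CPM (edgeR log2 change 0.72, adjusted p = 0.000104). Secreted antagonists split, with 4 of 14 higher, 3 lower and 7 not called. Sfrp1, whose secreted Frizzled-related product binds Wnt ligands, fell from 152 ± 4.84 to 87.7 ± 3.24 CPM (edgeR log2 change -0.79, SE 0.03, adjusted p = 2.69e-38). Its relative Sfrp4 fell from 5.11 ± 0.221 to 3.35 ± 0.545 CPM (edgeR log2 change -0.61, adjusted p = 0.000353).

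In the cytoplasmic signal-transduction list 10 of 16 genes fell and none rose, with a median of -0.22 and 6 not called; with total gene counts the counts were 7 lower and 3 higher. Of these genes 15 stood 10 times above background, where 57.4% of all genes fell, so the count is near that share. Csnk1e, a casein kinase 1 gene, fell from 30.3 ± 0.616 to 20.8 ± 1.91 CPM (edgeR log2 change -0.54, adjusted p = 2.95e-12). Btrc, whose product marks phosphorylated β-catenin for destruction, fell from 254 ± 5.63 to 185 ± 4.72 CPM (edgeR log2 change -0.45, adjusted p = 8.75e-28).

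Of the nuclear cofactors, 10 of 17 fell and none rose with TMM, whereas 3 fell and 5 rose with total gene counts; 14 stood 10 times above background. Tle2, a Groucho corepressor gene, went from 2.94 ± 0.142 to 1.97 ± 0.512 CPM (edgeR log2 change -0.57, adjusted p = 0.0104), a call lost with total gene counts. Aes, a short member of the same family, fell from 15.9 ± 2.03 to 11.6 ± 0.762 CPM (edgeR log2 change -0.45, adjusted p = 4.36e-06).

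Other target genes did not move as a block. Of 14 tested, 3 rose, 2 fell and 9 were not called, with a median of 0.17. Tbx3, a T-box gene that supports self-renewal of ES cells, fell from 136 ± 3.31 to 80.8 ± 0.884 CPM (edgeR log2 change -0.75, SE 0.03, adjusted p = 1.35e-36). Tnfrsf19, also called Troy, rose from 24.8 ± 1.62 to 40.6 ± 0.629 CPM (edgeR log2 change 0.71, SE 0.05, adjusted p = 2.55e-20).

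**Figure D5:**
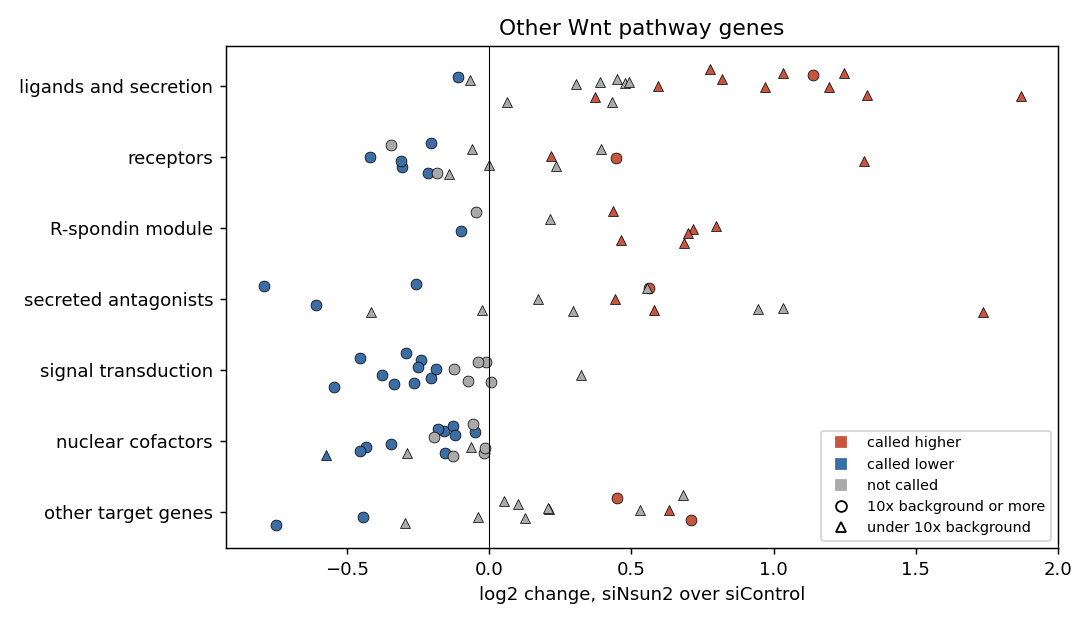
Log2 change (siNsun2 over siControl, TMM) of each tested gene in the 7 pathway lists, coloured by the edgeR call, with circles for genes at least 10 times above background and triangles for those below. Most circles lie left of 0 and most triangles right of it, and no gene of the signal-transduction and nuclear-cofactor lists was called higher.

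Markers were read beside these values. Of 10 pluripotency genes 9 were tested and present; Sox2 had 0 counts in every library, and it shares its strand and position with a longer gene. Their summed level was 1987 to 2023 CPM in siControl and 1526 to 1561 CPM in siNsun2, and 8 fell with TMM. All 9 stood 10 times above background, where 57.4% of all genes fell. Scaling by total gene counts gave 5 lower and 1 higher, and with TMM factors from genes 10 times above background 4 were lower and 2 higher. Klf4 fell from 63.9 ± 3.30 to 36.4 ± 0.544 CPM (edgeR log2 change -0.81, adjusted p = 7.46e-29) and Tfcp2l1, which has an overlapping gene on its strand, from 697 ± 5.04 to 443 ± 8.64 CPM (edgeR log2 change -0.66, adjusted p = 7e-45). Pou5f1, which encodes OCT4, was at 33.3 ± 2.37 and 33.5 ± 1.70 CPM.

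Primitive-streak genes, a setting in which Lef1 and Cdx1 are both used in the embryo, were low. Their summed level was 7.31 to 8.23 CPM in siControl and 6.58 to 7.51 CPM in siNsun2; of 6 tested, 1 rose and 1 fell (2 rose and 0 fell with total gene counts), Eomes from 5.63 ± 0.306 to 4.34 ± 0.473 CPM (edgeR log2 change -0.38, adjusted p = 0.0157, lost with total gene counts). The defining gene T (brachyury) was at 0.497 ± 0.133 and 0.516 ± 0.164 CPM and was not called. Fibroblast genes summed to 47.8 to 49.8 CPM in siControl and 35.9 to 37.3 CPM in siNsun2, with 3 of 7 lower and 0 higher, or 1 lower and 1 higher with total gene counts, among them Pdgfrb as above and Col1a1 (17.9 ± 0.458 to 14.1 ± 0.654 CPM, edgeR log2 change -0.34, adjusted p = 8.07e-05, lost with total gene counts). Of the 8 fibroblast genes 4 had a higher mean in siNsun2, such as Dcn (1.41 ± 0.0741 and 1.95 ± 0.213 CPM), which was not called. Only 1 of the 7 tested fibroblast genes stood 10 times above background, where 57.4% of all genes fell, beside 2.92% under that level. Extraembryonic-endoderm genes summed to 14.0 to 15.6 and 10.1 to 10.96 CPM, a sum carried by Gata4, while 5 of the 6 had a higher mean in siNsun2. Of 5 tested, 2 rose and 1 fell, with a median log2 change of 0.70. None of the 5 stood 10 times above background, and of all genes under that level 39.6% rose and 2.92% fell. Gata4 was lower (12.9 ± 0.503 to 6.98 ± 0.401 CPM, edgeR log2 change -0.89, adjusted p = 6.09e-13). Gata6 was higher (1.29 ± 0.315 to 2.11 ± 0.0488 CPM, edgeR log2 change 0.71, adjusted p = 0.00752), as was Afp (0.352 ± 0.189 to 0.755 ± 0.230 CPM, edgeR log2 change 1.09, adjusted p = 0.0239). Mesp1, Msgn1, Lum and Foxa2 were too low to be tested, and Sox2 was the only marker at 0 in all 6 libraries. Whether these cell types had a part in the values of Lef1 or Cdx1 was not tested.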

How the data were processed

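The authors trimmed reads with Trimmomatic 0.39, aligned them with HISAT2 2.2.1 to mm10 and counted reads per gene with HTSeq 0.12.4, per the labels' processing notes. The study's methods also name featureCounts, and no source used here states the feature type or strand option. The deposited values are raw counts per gene, 1 table per library, without scaling. Lines that name no gene, 26.9% to 27.5% of records in siControl and 35.9% to 36.8% in siNsun2, were left out. There were 0 spike-in lines, so changes in total caRNA per cell cannot be seen. Replicates of a group differed by more than sampling noise (chi-square per degree of freedom 3.87 to 5.41), and all were kept. Libraries of K562, a human line, were not used here.

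The 6 siRNA libraries were fitted with edgeR 4.0.16 (limma 3.58.1, R 4.3.3): TMM scaling, filterByExpr at a minimum of 10 counts, robust quasi-likelihood test, two-sided p adjusted by Benjamini-Hochberg over all genes, called under 0.05. Values are mean ± SD (n = 3). The Pspc1 WT library entered no fit. Symbols, spans and exons came from GENCODE vM21 (GRCm38), to which 99.93% of gene identifiers matched; the authors used an earlier GENCODE release. The background was the summed count of 1407 olfactory receptor genes per kb. DESeq2 1.42.0, other scalings, filters, a replicate block and leaving out each library were alternatives.

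The 9 genes, the gene lists and the tests were chosen with earlier results of these data known. Named are the 9 genes, Nsun2, the 5 genes most like Lef1, and same-strand overlaps. From each list up to 2 called genes are named, those with the largest change at 1 CPM or more whose groups do not overlap. The neighbours of Lef1 and Cdx1 were added after their values were seen. So were the genes Znrf3, Rnf43, Pou5f1, Sox2, T, Dcn, Afp and the untested markers.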

Additional observations from a re-analysis of the deposited data

Results flagged for a closer look

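The single Pspc1 WT library entered no test. Set beside siControl, 3 of the 9 genes were higher in it than in every siControl library. In CPM of total gene counts, Tcf7l1 was at 694 against 541 to 580 in siControl, Tcf7l2 at 244 against 240 to 242, and Ctnnb1 at 308 against 196 to 200. Its olfactory receptor level was 0.00654 CPM per kb against 0.0260 to 0.0287. With 1 library no spread is known, and the part of the background was not tested.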

How the results depend on the processing

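Lef1 was higher and Cdx1 lower in siNsun2 under every alternative tried. The log2 change of Lef1 was 1.65 with total gene counts, 1.67 with TMM factors from genes 10 times above background, 1.61 after background subtraction, and 1.42 to 1.53 without single libraries. Both scalings raised the median of all genes, 0.14 with TMM, to 0.32 and 0.33, and turned the direction of Tcf7l1 (0.0021 and 0.018), Ctnnb1 (0.044 and 0.059) and the median of the 9 genes (0.044 and 0.059). That median was -0.20 with DESeq2 size factors and with DESeq2, and -0.19 to -0.14 without single libraries. The Lef1 share differed by 2.39 points per kb of exon and by 5.85 to 5.98 points without single libraries. Listed pathway genes called higher, 27 in all, were 44 and 46 with the 2 scalings, 8 with a 2-fold threshold and 5 among genes 10 times above background, a limit added after seeing the data; without single libraries they were 23 to 26. Those called lower, 32, became 16, 15 and 0 with the scalings and the 2-fold threshold, and 28 to 32 without single libraries. Calls over all genes, 13844, became 2313, 6729 among genes above background, and 11769 to 13085. Of these calls 51.5% were in the higher direction with TMM, 79.8% with total gene counts and 82.3% with the factors from high genes. Calls of Tle2 (without siNsun2 replicate 3, log2 change -0.40), Eomes (without replicate 1 of either group, -0.34 and -0.31) and Gata6 (without siControl replicate 2, 0.51) were lost.

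Same-numbered libraries did not visibly deviate together (r = -0.03, 0.05 and -0.04), and differently numbered ones had r from -0.07 to 0.09. With 3 libraries per group this cannot exclude that same-numbered libraries shared a culture or day. With a replicate block Lef1 stayed at 1.47, 27 listed genes were called higher and 32 lower, and 13698 genes were called in all. Depth limits Sp5 most, at 9 to 40 counts per library.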

Other observations

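In the Pspc1 WT library, by CPM of total gene counts, Lef1 was at 4.89 against 16.8 to 19.4 in siControl, Cdx1 at 12.1 against 24.8 to 26.4, Axin2 at 26.6 against 34.6 to 36.2 and Nkd1 at 3.67 against 6.33 to 8.48. Relative to olfactory receptor genes, however, Lef1 stood at 6.56 times background there, next to 5.13 to 6.53 times in siControl. Tcf7 (10.8 against 10.7 to 13.7) and Sp5 (0.283 against 0.143 to 0.599) lay within the siControl range. Lef1 made up 0.724% of the TCF-LEF level in that library, and Cdx1 was at 80.0 per 100 of Axin2, nearer to the 72.8 ± 5.89 of siNsun2 than to the 127 ± 1.01 of siControl. With 1 library these differences from siControl were not tested.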
